A study of Mus musculus with 41 samples.

Results

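Immediate early genes are switched on within minutes of a stimulus, without new protein synthesis, and their transcripts are short-lived. Stimuli reach them through kinase cascades and through transcription factors such as SRF and CREB that wait on their promoters. Many of their products are transcription factors themselves, and others shut the signal down again, so that a tissue's level of these transcripts is known to depend on its recent stimulation, the handling of the animal and the collection of the organ included. The 10 genes described here are Fos, Fosb, Jun and Junb, which encode subunits of the AP-1 transcription factor, Egr1 and Egr2, which encode zinc-finger transcription factors, Atf3, a stress-induced factor of the ATF/CREB family, Nr4a1, an orphan nuclear receptor, Dusp1, a phosphatase that inactivates MAP kinases, and Ier3, a regulator of cell survival. They were chosen by gene name among the 27962 gene names of a mouse whole genome array, and 11 of its 41174 probes carry their names.

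The arrays measured RNA of female C57BL/6 mice (substrain C57BL/6BomTac per the methods) that inhaled nanoTiO2 (surface-coated rutile) in a whole-body chamber at 40 mg/m3 for 1 hr per day on 11 days in a row, and of air exposed control mice. Organs were taken 5 days after inhalation ended. Per the methods the mice were time-mated but had not conceived, and the labels give their age only as equivalent to GD4. Lung RNA came from 7 exposed and 6 control mice and liver RNA from 7 exposed and 8 control mice, with 1 mouse per array, and 12 mice were on both kinds of array. Each array carried the sample in Cy5 and a universal reference RNA pooled from mouse cell lines in Cy3, without a dye swap, so that every value below is log2(Cy5/Cy3), a level relative to that reference which can be compared between mice for the same gene but not between genes.

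CREB acts through the cAMP response element and SRF through the CArG box, and both were searched in the promoters of the members. RefSeq promoters (GRCm38.p6, 250 bases before to 50 bases after a transcript start) were at hand for 9 of the 10 members, the exception being Egr1. The core of the cAMP response element, TGACG on either strand, lay in 7 of these 9 (Fos, Fosb, Junb, Egr2, Atf3, Dusp1 and Nr4a1) and in 23.0% of 27025 genes with a promoter in the table (20.8% of 32851 promoters). The full palindrome TGACGTCA, which holds this core on both strands, lay in Dusp1 alone among the 9 and in 2.03% of genes, and the CArG box bound by SRF lay in Egr2 alone and in 1.81%. A match describes the letters and not a bound site. A missing match covers only this window, because sequence farther from the transcript start was not searched, nor was any promoter of Egr1. The copy nearest to the transcript start is shown for each gene that has one, in the direction of transcription, with the core (for Dusp1 the full element) in capitals, because these genes were followed together between mice.
Fos, chr12:85473812-85473840, plus strand: agttccgcccagTGACGtaggaagtccat
Fosb, chr7:19310089-19310117, minus strand: tggagttgcgggTGACGcaagcgcggggg
Junb, chr8:84978838-84978866, minus strand: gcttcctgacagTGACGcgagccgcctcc
Egr2, chr10:67537802-67537830, plus strand: tatgggcagcgaCGTCAcgggtattgaag
Atf3, chr1:191183324-191183352, minus strand: ttaatagcattaCGTCAgcctgggattgg
Dusp1, chr17:26508596-26508627, minus strand: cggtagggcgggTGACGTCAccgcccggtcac
Nr4a1, chr15:101266794-101266822, plus strand: cccctctccatgCGTCAcggagcgcttaa

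Between 55.1% and 70.5% of the spots of an array were well above background in Cy5. Lung arrays carried high levels of the 6 lung epithelial markers (mean log2 ratio 4.48 to 4.99, against -0.08 to 0.20 in liver) and liver arrays of the 5 measured liver markers (5.20 to 5.67, against 0.35 to 1.98 in lung). Exposed mice always occupied positions 1 and 2 of a slide and control mice positions 3 and 4, so that array position and exposure cannot be told apart. Lung and liver were labeled and scanned apart, so that tissue and array run cannot be told apart either. Slide 4 of the lung held exposed mice only. All members were well above background in the Cy3 channel of the 28 arrays and no member spot was saturated. In Cy5 the Fos probe failed this mark for most of its spots on 1 liver array (control mouse 34), and the Egr2 probe on 1 (exposed mouse 19). In bulk tissue, fewer cells of a type and less RNA per cell cannot be told apart.

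In the lung, none of the 10 members was called 5 days after exposure to nanoTiO2. Over all probes limma called 91 of 41172 (0.221%) at an adjusted p below 0.05, 82 higher and 9 lower. Among the members 7 had lower and 3 higher mean ratios in exposed mice, with a median difference of -0.08 beside 0.0013 for all probes, of which 49.3% were lower. Under median centring 4 of the 10 were lower. The smallest adjusted p among the members was 0.71, for Fos. At an unadjusted p below 0.05 limma and the exact permutation test (2-sided) each found 0 members, against 7.07% of all probes by limma.

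Fos, the partner of Jun in the classical AP-1 dimer, had log2 ratios from -1.57 to -0.91 (median -1.33, n = 6) in control lungs. In exposed lungs the ratios ran from -1.97 to -1.15 (median -1.52, n = 7). The groups overlapped, although 6 of the 7 exposed mice lay below the control mean and 3 below every control mouse. The difference was -0.26 ± 0.13 (SE), a fold of 0.833 (exact permutation p = 0.105, 2-sided). The 2 exposed mice of slide 4 (mice 20 and 23) read -1.97 and -1.52, and 68.1% of the variance of Fos in the lung lay between slides, against a median of 39.6% over all probes. With slide as a fixed block the difference was -0.13.

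Dusp1 and Nr4a1 showed the same arrangement. Dusp1 ranged from 1.17 to 2.21 (median 1.65) in control and from 0.85 to 2.13 (median 1.20) in exposed lungs, a difference of -0.35 with a 95% interval from -0.77 to 0.07. Nr4a1 ranged from -0.53 to 0.31 in control and from -0.87 to 0.14 in exposed lungs, and the difference was -0.29 with an interval from -0.65 to 0.07. In each of them 6 of 7 exposed mice lay below the control mean and 3 below every control mouse, and the groups overlapped. With slide as a fixed block the differences were -0.18 for Dusp1 and -0.13 for Nr4a1.

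The other 7 members differed by 0.13 or less between exposed and control lungs. Jun (-0.09), Fosb (-0.13) and Egr2 (-0.06) were lower in exposed mice on average and Atf3 (0.07) was higher. Egr1 (0.01), Junb (0.02) and Ier3 (-0.0005) differed least. Of these 7 only Atf3 kept its sign under every setting of the processing and with each array left out. The 95% intervals of these 7 reached no further than -0.36 and 0.29. The other Junb probe, which shares a run of 22 bases with the main one, gave 0.12 for the same comparison.

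The mean ratios of each of 8 sets of cell type markers overlapped between exposed and control lungs. The mean ratio of the 7 neutrophil markers, led by granule and calprotectin genes, was 0.65 to 1.53 in exposed and 0.94 to 1.85 in control lungs. All 7 were lower on average in exposed lungs (median -0.24), and limma called none of them. By cell counts of lavage fluid, the paper reports a larger share of neutrophils in exposed mice. From the lung arrays it also lists S100a8, which is among these markers, as lower in exposed mice by an unadjusted p-value. The mean ratio of the 6 macrophage markers was 2.31 to 2.51 in exposed and 2.16 to 2.35 in control lungs. Of these 6 limma called 1, the scavenger receptor Marco (0.57, adjusted p = 0.0094). The 5 heart muscle markers were 2.87 to 3.85 in exposed and 1.59 to 3.74 in control lungs, and the 5 liver markers 0.56 to 1.98 and 0.35 to 1.06, with all 5 of each set higher on average in exposed lungs (median 0.41 and 0.51) and none called. Over the 13 lungs the r of a set's mean with Fos ran from -0.475 for heart muscle to 0.333 for neutrophil markers. Their part in the members' values was not tested.

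**Figure D1:**
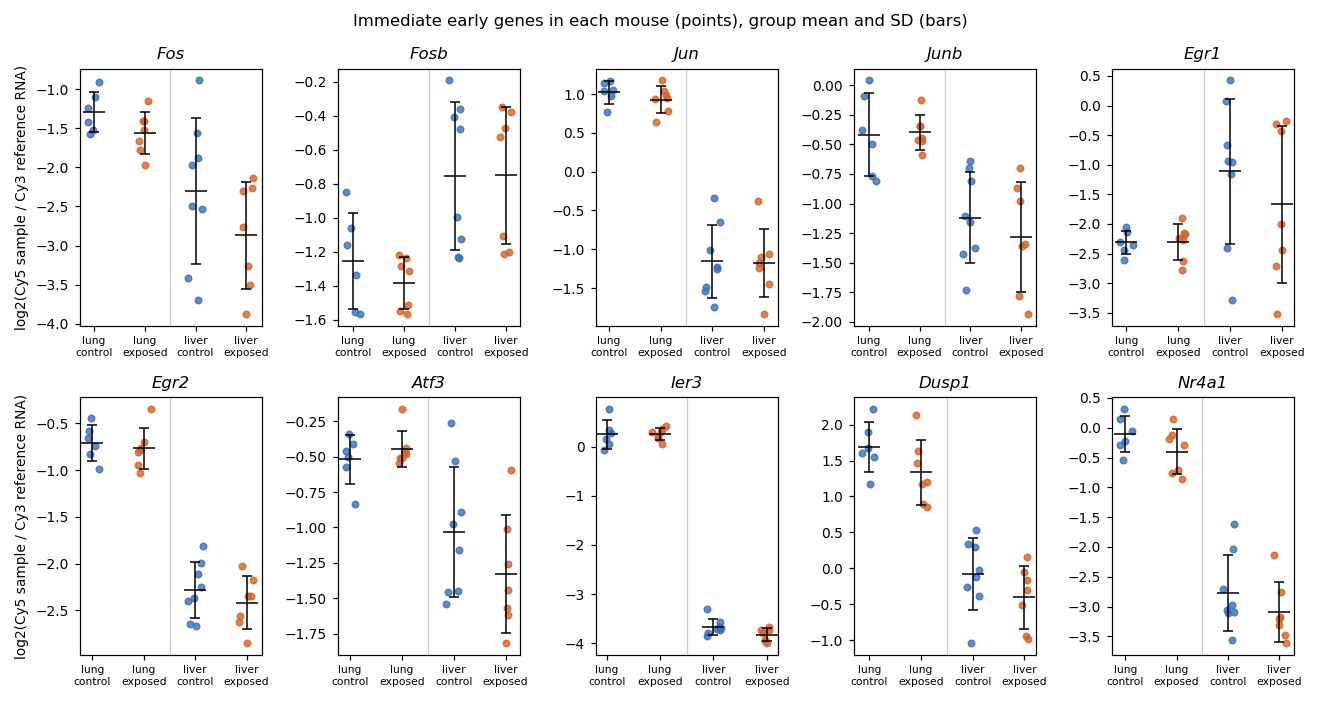
Log2(Cy5 sample / Cy3 reference RNA) of the 10 immediate early genes in each mouse, with a panel and a vertical scale per gene; points are mice, long bars group means and error bars SDs (n = 6, 7, 8 and 7 from left to right). Exposed and control mice overlap in each tissue, Ier3 lies about 4 log2 units higher in lung than in liver, and the liver points of Fos and Egr1 spread over several log2 units.

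In the liver no member was called either, and limma called 0 of 41174 probes (0%) at an adjusted p below 0.05 and 1041 (2.53%) at an unadjusted p below 0.05. Of the members 9 had lower mean ratios in exposed mice and 1, Fosb, a ratio within 0.01 of the control mean. The median difference over the members was -0.23 beside -0.0019 over all probes, of which 51.4% were lower. The members of a liver share 1 array and partly move together, so that their directions are not separate observations. Under median centring 6 of the 10 were lower.

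Fos ranged in control livers from -3.69 to -0.89 (median -2.23, n = 8). In exposed livers it ranged from -3.88 to -2.13 (median -2.76, n = 7). Control mouse 26 was the highest and exposed mouse 20 the lowest of all 15 livers, but only 4 of 7 exposed mice lay below the control mean and the groups overlapped widely. The difference was -0.57 ± 0.38 (SE; exact permutation p = 0.206, 2-sided).

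Egr1, whose product binds GC-rich promoters, ranged from -3.29 to 0.43 (median -0.94) in control and from -3.52 to -0.27 (median -1.996) in exposed livers. Its difference of -0.56 had a 95% interval from -1.79 to 0.67. It was -0.87 without control mouse 45 and -0.25 without exposed mouse 20. Nr4a1 (-0.33), Dusp1 (-0.32) and Atf3 (-0.30) differed less and their groups overlapped.

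Ier3, which had by far the lowest liver level relative to its lung level, showed the smallest unadjusted p of the members in the liver. It ranged from -3.84 to -3.31 (median -3.69) in control and from -3.99 to -3.67 (median -3.78) in exposed livers, and all 7 exposed mice lay below the control mean, although only 3 lay below every control mouse. The difference was -0.16 (unadjusted p = 0.0462 and adjusted p = 1.0 from limma; exact permutation p = 0.0530, 2-sided). Under median centring it was 0.01, and with the background model on all spots -0.75 (adjusted p = 0.513 from limma; exact permutation p = 0.0210, 2-sided). With all spots kept, the fitted Cy5 background mean was -972 for control liver 24 and -696 for control liver 26. With marked spots left out, as in the main processing, these were -12.5 and -9.1. The remaining members, Junb (-0.16), Egr2 (-0.14), Jun (-0.02) and Fosb (0.0036), had intervals that included 0.

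**Figure D2:**
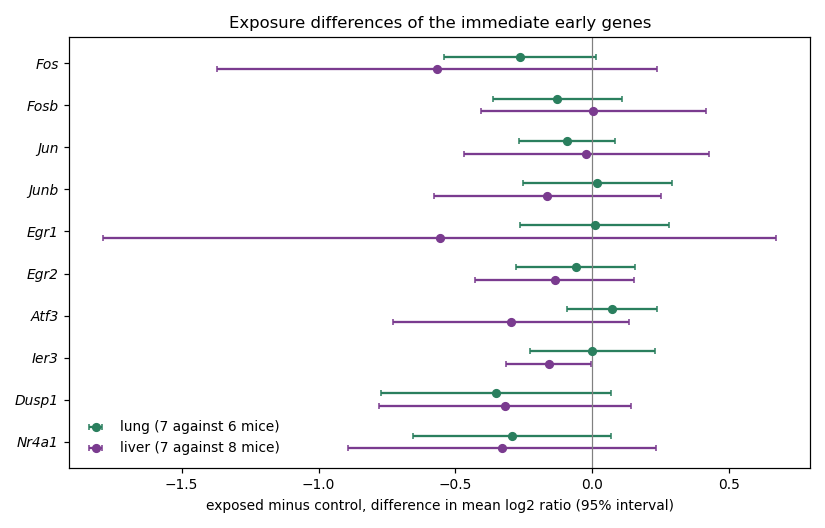
Exposed minus control difference in mean log2 ratio of each member, with 95% intervals from limma, in lung (green, 7 against 6 mice) and liver (purple, 7 against 8 mice). The liver intervals of Fos and Egr1 are the widest, and the intervals cross 0 except that of Ier3 in liver, which ends at -0.003.

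The difference between the exposure effects of the tissues was fitted over all 28 arrays. It called 58 of 41172 probes (0.141%) and none of the members, whose values ran from -0.13 for Fosb to 0.57 for Egr1. The smallest unadjusted p among the members was 0.137, for Atf3, with a difference of 0.37 and an interval from -0.13 to 0.87.

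Lung and liver of control mice, by contrast, differed for all 10 members, 8 higher and 2 lower in lung, where limma called 24657 of 41172 probes (59.9%), 30.4% higher and 29.5% lower. Ier3, Nr4a1, Jun, Dusp1 and Egr2 held this call under each of 9 settings of the processing, the main one included. In these 5 every control lung lay above every control liver, as was so, in either direction, for 40.9% of all probes compared.

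Ier3 had ratios from -0.08 to 0.76 (median 0.21, n = 6) in control lungs. In control livers they ran from -3.84 to -3.31 (median -3.69, n = 8). The difference of 3.91 ± 0.09 (SE) was a 15.1-fold higher level in lung (adjusted p = 9.15e-25), and over the 9 settings it ran from 3.32 to 4.64. Nr4a1 ran from -0.53 to 0.31 in control lungs and from -3.56 to -1.61 in control livers, a 6.32-fold higher level in lung.

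Jun ran from 0.76 to 1.17 in control lungs and from -1.75 to -0.34 in control livers, a 4.53-fold difference. Dusp1 was 3.41-fold and Egr2 2.98-fold higher in control lung. The size for Egr2 ranged from 1.097 to 2.46 on the log2 scale over the settings.

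For the other 5 members the call did not hold under every setting. Fos was 1.01 ± 0.32 (SE) higher in lung (adjusted p = 0.00725) but reached an adjusted p of 0.0732 with the background model fitted on all spots. Its group ranges overlapped, and the exact permutation test (2-sided) gave p = 0.0233. Junb, the AP-1 subunit with growth-restraining activity, was 0.70 higher in lung (adjusted p = 0.00123), while median centring gave -0.18 and its other probe 0.36 (adjusted p = 0.0575). Its main probe was the brightest of the members (mean log2 signal 13.7). Bright probes of the array had a median difference of 0.54 in the main processing and -0.40 under median centring. The part of this shift in the Junb values was not tested. Atf3 was 0.51 higher in lung (adjusted p = 0.0113), with 0.153 and 0.0805 as adjusted p under the background model on all spots and under median centring.

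The 2 members lower in lung were Egr1 and Fosb. Egr1 ran from -2.60 to -2.05 in control lungs and from -3.29 to 0.43 in control livers, so that the lung values lay inside the liver range. The difference of -1.20 had an adjusted p of 0.0315, with 0.0542 and 0.0675 under the background model on all spots and in the authors' table. The fit assumed a spread shared by both tissues, whereas the SD of Egr1 within groups was 1.27 in liver and 0.26 in lung. The exact permutation test (2-sided) gave p = 0.0326. In exposed mice the same comparison gave -0.63 (adjusted p = 0.257). Fosb was 0.50 lower in control lung (adjusted p = 0.0139, and 0.113 under median centring), and its liver values were split by slide.

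**Figure D3:**
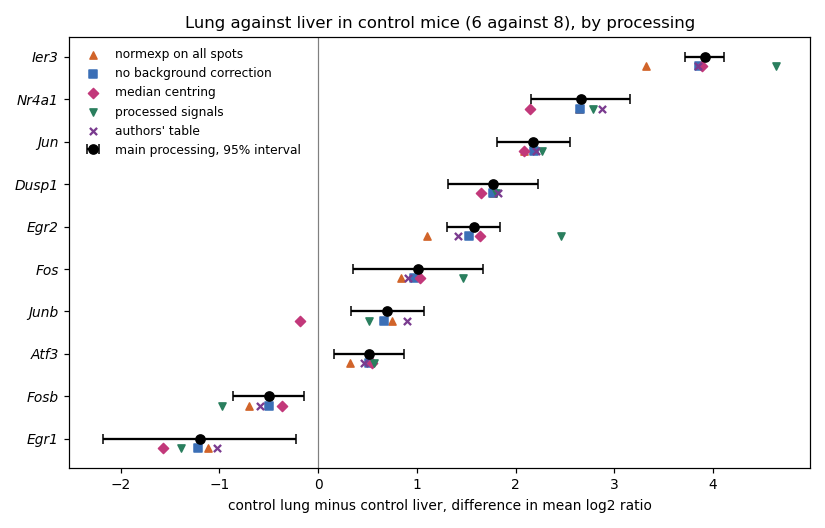
Control lung minus control liver difference in mean log2 ratio of each member (6 against 8 mice), with the 95% interval of the main processing in black and the value under 5 other ways of processing as colored marks. Ier3, Nr4a1, Jun, Dusp1 and Egr2 lie to the right of 0 under each, Egr1 and Fosb to the left, and Junb changes side under median centring (-0.18).

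Most members varied more between livers than between lungs of the same group. The SD within groups of the 10 members had a median of 0.45 in liver and 0.24 in lung, beside 0.15 and 0.12 over all probes well above background. The ratio of the liver SD to the lung SD ran from 0.70 for Ier3 and 1.16 for Dusp1 to 3.12 for Fos and 4.91 for Egr1. It was larger in liver for 9 of 10 members, the exception being Ier3 (0.15 in liver and 0.22 in lung). Over probes well above background on every array, the 95th percentile of the SD was 0.35 in liver and 0.27 in lung. The SDs of 8 members in liver and 2 in lung exceeded that of their tissue. Fosb was among the 8 (SD 0.42), and slide held 96.8% of its variance in liver.

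Egr1 had the widest range, 3.95 log2 units or 15.4-fold between the highest and the lowest liver, with an SD within groups of 1.27 in liver and 0.26 in lung. Fos ranged over 2.99 log2 units (7.94-fold) in liver and 1.06 in lung, and Nr4a1 over 2.00 and 1.18. The Fos probe is printed 10 times on each array, and the SD over these spots had a median of 0.07 in lung and 0.06 in liver. This SD covers the error of spots within an array and not technical differences between arrays. The Egr1 probe has 1 spot per array, so that it has no such SD. Slide held 57.6% of the variance of Fos and 56.7% of that of Egr1 in liver, against a median of 39.0% over all probes, and its part in the spread was not tested.

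A few mice held most of the extremes. The liver of exposed mouse 20 had the lowest ratio of 7 members (Fos, Jun, Junb, Egr1, Atf3, Ier3 and Nr4a1). That of control mouse 26 had the highest of 4 (Fos, Jun, Junb and Egr1), and that of control mouse 37 the highest of another 4 (Fosb, Atf3, Ier3 and Dusp1). In the lung no mouse was lowest for more than 2 members, and none was highest for more than 2.

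Within a liver, Fos and Egr1 moved together. With group means removed, Pearson's r was 0.922 and Spearman's rho 0.918 over 15 livers (permutation p = 1e-05, the smallest the permutations can give, and adjusted p = 0.00028 over 28 relations). Without the 2 livers farthest from the median of Fos, r was 0.940. It was 0.968 among the 7 exposed and 0.920 among the 8 control livers, and 0.820 with slide means removed as well (adjusted p = 0.0280). Egr1 was the probe with the highest r with Fos among 21132 probes.

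This was the only one of the 28 relations to pass correction before slide means were removed. The r of Fos with Nr4a1 was 0.634 in liver (rho 0.546, permutation p = 0.0181, adjusted p = 0.101), and fell to 0.454 without the 2 farthest livers. With Jun it was 0.539, with Egr2 0.535, with Junb 0.470, with Atf3 0.436, with Dusp1 0.378 and with Ier3 0.009. With slide means removed, an alternative chosen after the data were seen, the relation with Atf3 rose to 0.853 (adjusted p = 0.0280) and that with Junb to 0.747 (adjusted p = 0.0581). The values for Nr4a1, Egr2, Jun, Ier3 and Dusp1 were then 0.694, 0.613, 0.572, 0.567 and 0.475, none past correction. Over all 45 pairs of members the median r was 0.449 in liver, with 40 positive, and 0.225 in lung, with 33 positive. All pairs share their arrays, so that any effect of a whole array enters each of them.

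In the lung Fos was again closest to Egr1 among the members, with r = 0.703 (rho 0.731, permutation p = 0.0116, adjusted p = 0.101 over the 28). It was 0.670 without the 2 farthest lungs. The values for Nr4a1, Junb and Ier3 were 0.591, 0.565 and 0.525, and for Egr2 -0.416. With slide means removed Egr1 had 0.812 (adjusted p = 0.0733) and Junb and Ier3 had -0.155 and -0.122.

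No member's lung level tracked its liver level past correction. Over the 12 mice with both organs, with group means removed, r was 0.118 for Fos, 0.030 for Egr1 and 0.070 for Nr4a1. Dusp1 had the highest, 0.720 (rho 0.699, permutation p = 0.0120, adjusted p = 0.101), and 0.888 without the 2 farthest mice. Jun had -0.718 (rho -0.455, permutation p = 0.0145, adjusted p = 0.101), which moved to -0.214 without 2 mice and so rested on them.

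**Figure D4:**
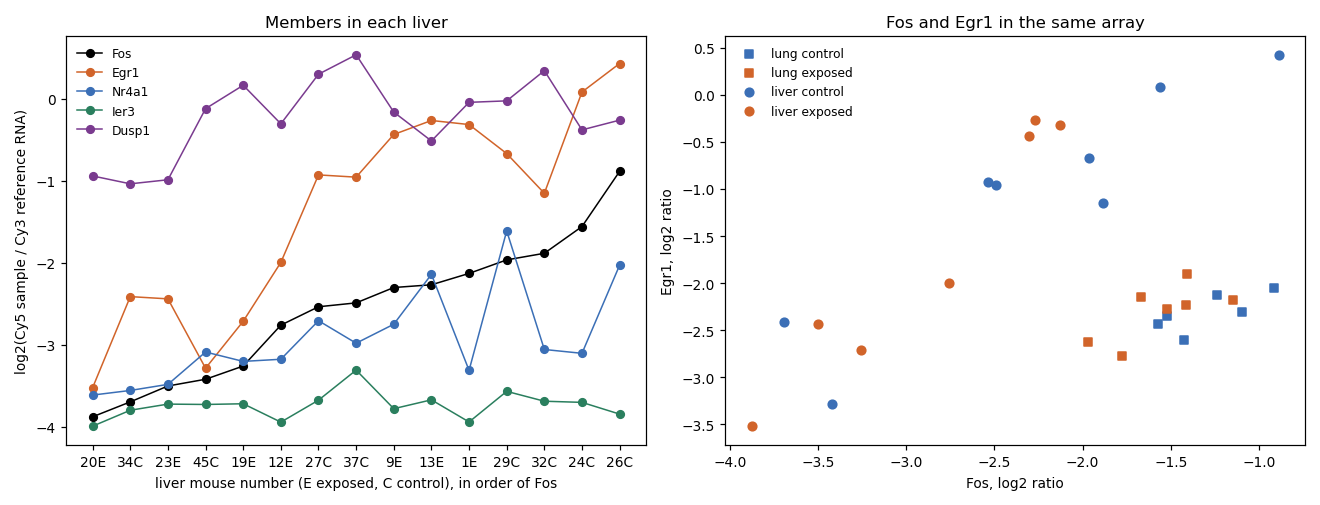
Left, log2 ratios of 5 members in the 15 livers ordered by Fos, with the mouse number and E for exposed or C for control on the horizontal axis. Right, Egr1 against Fos in each array of liver (circles) and lung (squares), blue for control and orange for exposed. In liver Egr1 rises with Fos (r = 0.922 with group means removed), and the lungs form a tight cloud. Ier3 varies little in liver (SD within groups 0.15), and its r with Fos is 0.009, or 0.567 with slide means removed as well.

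The genes most like Fos in liver after Egr1 were Ier2, another immediate early gene (r = 0.922), Krtap6-1, a keratin-associated protein gene (0.911), Vamp3, which encodes a vesicle fusion protein (0.903), and Btg1, an antiproliferative gene (0.903). Among 44 other early response genes that were well above background in every liver, 11 (25%) had an r above 0.5 with Fos, against 11.5% of all 21132 probes. These included Btg2 (0.895), Zfp36, which encodes an mRNA-destabilizing protein (0.841), Gem (0.796) and Nfil3 (0.788). Others ran against Fos, among them the clock genes Per1 (-0.804) and Bhlhb2 (-0.692), and the median r of the 44 was 0.087, so that the early response genes did not move as a single group. Of the 8 sets of cell type markers, the mean level had an r with Fos in liver from -0.614 for lung markers, which lay between -0.08 and 0.20, to 0.319 for macrophage markers. It was -0.353 for lymphocyte, 0.282 for endothelial and 0.243 for neutrophil markers. The share of spots marked by the scanner software had r = -0.499 with Fos in liver and 0.637 in lung. The part of these measures in the spread was not tested.

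In the lung the genes most like Fos were Zfp31 (r = 0.924), Taz (0.921), Pou3f1 (0.918), Ing3 (0.907) and Smg6 (0.889), none of them an early response gene of the lists used here. Egr1 ranked at 272 of 23272 probes. Of 45 other early response genes 2 (4.44%) had an r above 0.5 with Fos, against 8.79% of all probes.

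Fosb did not follow Fos in the liver. Its values fell into separate sets by slide, from -1.24 to -0.99 in the 7 mice of slides 1 and 3 and from -0.53 to -0.19 in the 8 mice of slides 2 and 4. Exposed and control mice were mixed in both sets, and slide held 96.8% of the variance of Fosb against a median of 39.0% over all probes. Within the sets, which each pool 2 slides, the r of Fos with Fosb was -0.284 and -0.384. With group and slide means removed over all 15 livers it was -0.087 (permutation p = 0.832). The control liver mean of -0.75, against which the lung was compared, lay between the sets. The liver arrays split along the same slides in their share of spots passing the background mark in Cy5. This share was 55.1% to 59.5% on slides 1 and 3 and 63.2% to 70.5% on slides 2 and 4. Fosb also had the dimmest main probe of the members (mean log2 signal 7.78). The part of this array-wide difference in the Fosb values was not tested.

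**Figure D5:**
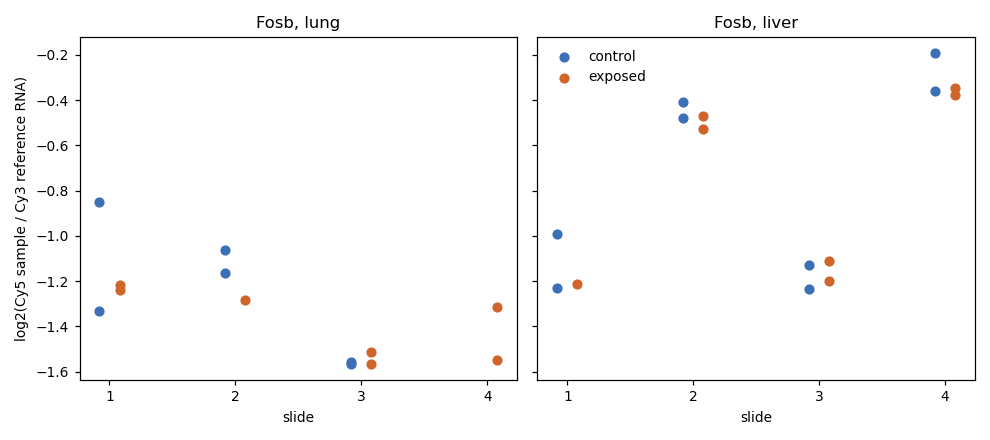
Fosb log2(Cy5 sample / Cy3 reference RNA) in each mouse by slide, in lung (left) and liver (right), blue for control and orange for exposed mice. In liver slides 1 and 3 lie between -1.24 and -0.99 and slides 2 and 4 between -0.53 and -0.19, with both exposure groups in each.

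Of 49 other early response genes 1 was called in lung, where 0.221% of all probes were called. This was Tnfaip3, an inhibitor of NF-kB signaling, which rose by 0.39 ± 0.07 (SE; adjusted p = 0.0348 from limma). None was called among 22 upstream kinases and transcription factors, 15 AP-1 and CREB partners, 10 other dual specificity phosphatases, the 2 Egr corepressors Nab1 and Nab2, or 12 heat shock genes. The values at the ends were -0.21 for Creb1 and 0.08 for Map2k7 among upstream factors. In the liver none of these genes was called, and the early response genes ran from -0.42 for Gadd45g to 0.30 for Plk3.

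Between control lung and control liver 27 of the 49 early response genes were higher and 10 lower in lung, where 30.4% of all probes were higher and 29.5% lower. The largest differences were those of Klf4 (4.69), a zinc-finger factor, Gadd45b (3.86), a stress sensor, Ctgf (3.21), a matrix-associated growth factor, Cebpd (3.04), Klf6 (2.89) and Ier5 (2.66). Of the other phosphatases 7 were higher and 2 lower in lung, led by Dusp7 (3.33) and Dusp14 (2.75), and of the upstream factors 11 were higher and 7 lower, with Elk3 (2.84), Mapk3 (1.89), Creb1 (1.77) and Srf (1.58) at the top. Of the AP-1 and CREB partners 5 were higher and 7 lower in lung, among them Cebpa (-1.78). Nab1 (-0.91) and Nab2 (-0.56), which hold Egr proteins in check, were lower in lung. Among the Egr members, Egr1 was lower in lung (-1.20) and Egr2 higher (1.57). Of the heat shock genes 6 were higher, led by Hspa1a (2.54), and 5 lower, led by Hspb8 (-1.80).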

How the data were processed

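The authors deposited the scanner software's intensity values of each spot (Agilent Feature Extraction 9.5.3.1 for lung, 10.1.1.1 for liver), which are not normalized, and a processed table in log2 units made by LOWESS, used as an alternative. The study's methods tested treatment with MAANOVA, for which limma's moderated test stands in here. Spots marked by the software as non-uniform or outliers were left out, median intensities were corrected with normexp (offset 50), ratios were normalized within arrays by loess, and replicate spots of 1 probe were averaged. limma 3.58.1 in R 4.3.3 (lmFit, eBayes, Benjamini-Hochberg over all probes, threshold 0.05) gave all differences. Exposure was fitted in each tissue separately. The tissue comparisons were fitted over 28 arrays with a spread shared by lung and liver, which their SEs and p-values assume. The fits were tested on simulated data. Single members also had exact permutation tests. Correlations used Python 3.11.15 with 100000 permutations within groups, adjusted over 28 relations.

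Lung and liver were paired by the mouse number of the labels. Same-mouse deviations of lung and liver from their group means correlated at -0.115 to 0.331 over 12 mice. The number of arrays limits the precision, and the labels do not give litters or cages. Members and gene lists were chosen with earlier results of these data known. Genes were named by a rule: all members by their brightest probe, of each list the called genes (at most 6, largest first) or else those at the ends, and the 5 genes with the highest r with Fos per tissue. Among early response genes related to Fos, and with the markers, names were chosen after their values were seen. Alternatives were the background model on all spots, no background correction, the software's processed signals, median centring, the authors' table, a filter on dim probes, slide as a fixed or random block, 1 value per gene name, mouse as a block, and each array left out. Removing slide means from correlations, and other processing for the exact tests, were added after the data were seen. For slide means removed, permuted residuals were cleared of group and slide again (Freedman-Lane) and relations between tissues were left as they were. A simpler permutation, run first, passed 8 of 28 relations and was replaced because it ignored the degrees of freedom taken by slide. The miRNA arrays were not used here, and the values of 1 listed gene are not reported here.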

Additional observations from a re-analysis of the deposited data

Results flagged for a closer look

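Of 40 sets of arrays (10 members in 4 groups), 1 held a mouse far from the others: Atf3 in the exposed lungs, where mouse 19 read -0.16 and the next highest mouse -0.44. Chance gives such a flag in about 1 of 20 sets.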

How the results depend on the processing

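No member was called for exposure under any of 22 settings in lung and 24 in liver. The count of called probes in lung, 91, was 15 with the background model on all spots and 6 under median centring, and 71 to 92 with each array left out (0 throughout in liver). The count of probes whose exposure effect differed between tissues, 58, was 5, 12 and 35 with the background model on all spots, median centring and processed signals. With the background model on all spots 1 member in liver, Ier3 (-0.75), had an unadjusted p below 0.05 by the exact test (exact p = 0.0210). Its adjusted p from limma was 0.513. Over the 28 arrays the fitted Cy5 background mean ran from -972 to -4.45 with all spots kept. With marked spots left out it ran from -26.1 to -4.44. The part of this in the results of the setting on all spots was not tested. Removing slide means within each tissue gave 2 correlations past correction in place of 1.

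Pairing by mouse, as a random replicate block (24880 probes between tissues, 63 for the difference of effects) or a fixed one (23338 and 54), changed no member's call. Between tissues the processed signals moved the median of all probes to -0.11.

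Members not called for exposure changed sign as follows, on the log2 scale. The background model on all spots gave Fosb 0.23, Junb -0.026 and Egr2 0.076 in lung, Fosb -0.24 in liver and 0.47 for the difference between tissues. Median centring gave Jun 0.0030, Egr2 0.024 and Ier3 0.096 in lung, Jun 0.17, Junb 0.075 (other probe 0.067) and Ier3 0.014 in liver, and Nr4a1 -0.027 for the difference, and it turned Junb between control tissues to -0.18 (other probe -0.42). Ier3 in lung was 0.00085 without background correction, 0.073 with processed signals, and 0.074 and 0.020 with slide as a fixed and random block. Fosb in liver was -0.050 and -0.022 with those blocks. Egr1 in lung was -0.0044 with processed signals and Junb -0.00095 in the authors' table. With each array left out Egr1 ran from -0.059 to 0.086, Junb from -0.061 to 0.11 and Ier3 from -0.065 to 0.10 in lung, and Fosb from -0.065 to 0.084 and Jun from -0.15 to 0.096 in liver. The cause was not tested.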
